A study of Mus musculus with 24 samples.

Results

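The sites described here are the protein-protected sites (PPSs) that a double-strand-specific RNase (dsRNase, RNase V1) revealed in MEL cells at day 0 and day 4 of erythroid differentiation. They were taken from the PPS lists of these days as all PPSs with at least 1 dsRNase call of either replicate, without PPSs of 20 to 40 nt. This left 51107 of 138689 PPSs at day 0 and 78496 of 152513 at day 4, so 129603 of 291202 in all. MEL cells are a murine erythroleukemia line arrested at an early erythroid stage, and 2% DMSO in the medium drives them toward hemoglobin-making cells. Day 0 cells were undifferentiated, and day 4 cells had been treated for 4 days. Both days had 2 biological replicates of cultured cells. All cells were crosslinked with formaldehyde, and each culture was split into footprinting samples, digested while proteins were still bound, and structure-only samples, digested after proteins had been removed. A PPS is a stretch where reads of the footprinting sample exceed those of the structure-only sample. The dsRNase calls come from 8 libraries, 2 replicates of each kind on each day, and a cell line in culture is their model. Because the calls of both nucleases were merged in the lists, 38.3% to 42.4% of the PPSs in a dsRNase replicate set also carry an ssRNase call, and the extent of those PPSs draws on ssRNase libraries as well.

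In a maturing erythroid cell the genes for hemoglobin, heme synthesis, iron uptake and the membrane skeleton become highly active, while genes of proliferation are shut down before the nucleus is expelled. Introns are removed from most transcripts in the nucleus, so proteins found on intronic RNA are met on precursor RNA or on transcripts that keep the intron. dsRNase cuts paired RNA, so its footprints are seen where a protein shields paired bases, and an ssRNase footprint is seen where it shields unpaired ones.

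To show what the intronic sites look like, 1 site is given for 7 of the 8 genes with the largest rise of intronic PPSs. Each line shows 30 bases of the highest-scoring day 4 PPS of that gene that lay in introns alone, had calls of both dsRNase replicates and touched no PPS of day 0. The sequence is that of the transcribed strand in the mm10 genome, 5′ to 3′, and capitals mark the word GAGAA, which was chosen after the sequences had been examined.
Sptb, chr12:76684423-76684452, minus strand: tctggaggccattGAGAAgaattctcaatt
Asap1, chr15:64184532-64184561, minus strand: aacctggtcacttGAGAAgagatttgtaca
Cpeb4, chr11:31892991-31893020, plus strand: tagattttaacttGAGAAtagtgttaaaga
Zfpm1, chr8:122290748-122290777, plus strand: gcaaggttttagcgaagatcagagctgcag
Atrnl1, chr19:57651351-57651380, plus strand: aagactagaaacgaggatttagttcgaatg
Epb41, chr4:132072499-132072528, minus strand: catgacctggtttagagcaagctcatactg
Camta1, chr4:151432780-151432809, minus strand: agcaggttagacaGAGAAtaaaatggatca
The window was set around GAGAA where the PPS held it, as in Sptb, Asap1, Cpeb4 and Camta1, and around the middle of the PPS in the other genes. The Sptb site was 195 nt long and lay 25418 nt from the nearest annotated exon. The Epb41 site, 138 nt long, lay 347 nt from one. Of 51 Sptb PPSs in introns alone with calls of both replicates, 47 touched no PPS of day 0, as did 37 of 40 in Cpeb4 and 25 of 82 in Asap1. The genes were chosen for their rise, and Sptb and Cpeb4 had few intronic PPSs at day 0, while Asap1 had many. These counts therefore follow largely from that choice.

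The number of dsRNase PPSs was higher at day 4 than at day 0. Replicates 1 and 2 gave 27862 and 32624 PPSs at day 0, and 54935 and 40195 at day 4. Both day 4 sets were larger than both day 0 sets, and replicate 1 of day 4 was the largest. Median lengths were close, at 69 and 67 nt at day 0 and 66 and 67 nt at day 4. Both strands were evenly represented, with 51.5% and 51.6% of PPSs on the plus strand at day 0 and 51.1% and 51.5% at day 4. PPSs with calls of both replicates made up 18.4% of the day 0 sites and 21.2% of the day 4 sites. The lists carry no read counts, so the depth of a library is unknown from them, and a longer list cannot be told apart from a deeper or more efficient library. With 2 replicates against 2, a two-sided exact permutation test cannot give a p under 0.333, so no p-value is given, and each change is the mean difference, stated with its range over the 4 pairings of day 4 with day 0 sets. The replicate sets share merged PPSs, so their spread is an underestimate. In bulk samples like these, fewer cells of a kind and less RNA per cell cannot be told apart. Nor can changed protection of a gene be told apart from a changed amount of its RNA, which the lists do not give. Of the 8 erythroid markers examined, 5 had an exonic dsRNase PPS at day 0 and 8 at day 4. Of 15 markers of T cells, B cells, myeloid cells, fibroblasts and liver, 0 had one on either day.

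The share of sites in coding sequence (CDS) was lower at day 4 and the share in introns higher. PPSs that overlapped a CDS made up 49.6% and 48.7% of the day 0 replicates and 32.5% and 36.0% of the day 4 replicates. PPSs that overlapped an intron made up 38.4% and 41.1% at day 0 and 54.5% and 50.3% at day 4. The days did not overlap in either class. The CDS share changed by -14.9 percentage points (from -17.1 to -12.6) and the intron share by 12.7 points (9.19 to 16.1). For the pooled lists the changes were -14.7 points (Newcombe 95% interval -15.3 to -14.2) and 13.1 points (12.5 to 13.6), where the intervals cover counting error only. A PPS was counted in every class it touched by 1 nt or more, so the same site can stand in both.

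The share of sites that lay in introns and touched no exon of any gene on their strand was also higher at day 4. They were 19.6% and 21.8% of PPSs at day 0 and 37.4% and 32.8% at day 4, a change of 14.4 points (11 to 17.8). In numbers, there were 5455 and 7109 of them at day 0 and 20521 and 13182 at day 4. The number of CDS sites, in contrast to their share, did not separate the days, with 13833 and 15882 at day 0 and 17877 and 14485 at day 4. The lower CDS share was thus measured in lists that had gained intronic sites and had kept a similar number of CDS sites. The share in 3′ UTRs was 31.3% and 28.4% at day 0 and 24.1% and 26.5% at day 4, a change of -4.53 points (-7.18 to -1.89). The share in 5′ UTRs, 4.82% and 5.68% at day 0, was 3.31% and 3.45% at day 4.

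**Figure D1:**
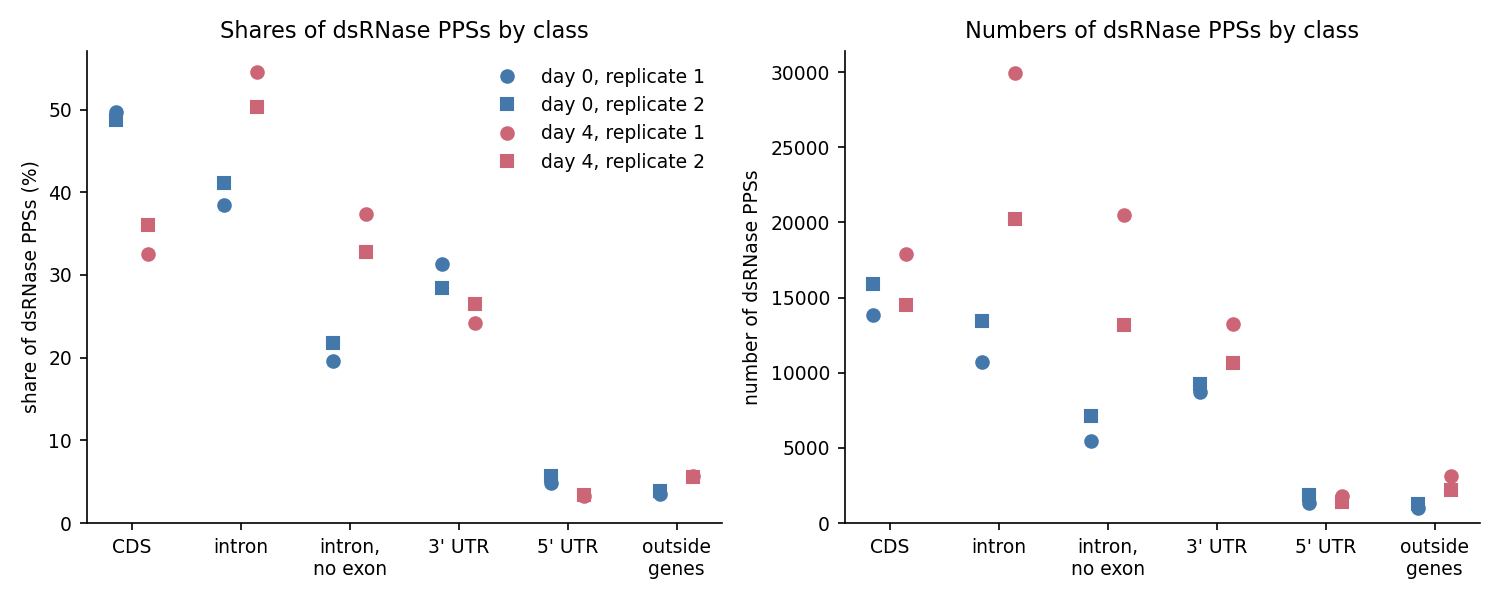
Each point is 1 dsRNase replicate set, with its share of PPSs in percent (left) or its number of PPSs (right) in each transcript class. The day 4 points lie below the day 0 points for the CDS share (32.5% and 36.0% against 49.6% and 48.7%), while the numbers of CDS sites of the 2 days overlap and those of intronic sites do not.

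Sites outside genes were also more frequent at day 4. They made up 3.57% and 3.89% of PPSs at day 0 and 5.66% and 5.55% at day 4. Among them, sites within 5 kb downstream of the end of a protein-coding gene numbered 169 and 234 at day 0 and 760 and 539 at day 4, which is 0.607% and 0.717% of the day 0 sets and 1.38% and 1.34% of the day 4 sets. The share antisense to an annotated gene was 1.17% and 1.33% at day 0 and 1.86% and 1.84% at day 4. The day 4 replicates lay above both day 0 replicates in each of these shares.

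Most day 4 sites in introns alone had no counterpart at day 0, and about as many day 0 sites in introns alone had none at day 4 as had one. Of the day 4 sites in introns alone, 13.8% and 15.2% overlapped a dsRNase PPS of day 0, 24.6% and 24.5% overlapped only an ssRNase PPS of day 0, and 61.5% and 60.3% overlapped neither. For day 4 sites in CDSs, 39.5% and 40.8% overlapped a dsRNase PPS of day 0, and 44.1% and 42.6% overlapped neither kind. In the other direction, 35.9% and 31.7% of the day 0 sites in introns alone overlapped a dsRNase PPS of day 4, against 42.8% and 41.5% of the day 0 CDS sites, which is a smaller gap. Neither kind of day 4 PPS was overlapped by 47.9% and 51.7% of the day 0 sites in introns alone and by 42.6% and 43.2% of the day 0 CDS sites. The day 4 sets held more sites in introns alone, which by itself lowers their overlap with day 0, so the directions are not directly comparable. Replicate support was also lower for intronic than for CDS sites. Sites in introns alone had calls of both replicates in 18.6% and 14.2% of cases at day 0 and in 20.4% and 31.7% at day 4, where CDS sites had them in 37.9% and 33.0% and in 35.4% and 43.6%. An ssRNase call was merged into 58.1% and 56.4% of these intronic sites at day 0 and into 39.9% and 42.8% at day 4.

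The intronic sites of the 2 days differed little in place. Their median distance to the nearest exon was 1594 and 1671 nt at day 0 and 1693 and 1677 nt at day 4, a change of 52.8 nt (6 to 99.5 over the 4 pairs). The change was -112.5 nt when only sites with both replicates were taken, so its direction is not settled. At day 0, 7.06% and 6.67% of sites lay within 100 nt of an exon, and at day 4, 6.26% and 6.26%. The share within 500 nt of the upstream end of their intronic stretch, which holds the 5′ splice site, was 16.3% and 15.8% at day 0 and 14.1% and 14.2% at day 4. The median position along the gene, from the 5′ end, was 39.4% and 38.7% of its length at day 0 and 42.8% and 42.9% at day 4. Repeat-masked bases made up 9.88% and 8.61% of the intronic sites at day 0 and 6.88% and 6.99% at day 4. Median lengths were 71 and 68 nt at day 0 and 63 and 64 nt at day 4, a change of -6 nt, but the change was 0.5 nt among sites without an ssRNase call and 6 nt with equal numbers of top-scoring PPSs. These shifts were small beside the rise in number, although the replicates of the 2 days did not overlap in them.

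The word GAGAA was more frequent in the intronic sites than beside them on both days. It was present in 23.5% and 21.9% of the sites at day 0 and in 24.4% and 23.9% at day 4, read on the transcribed strand only. Flanks of equal length on either side held it in 11.2% and 10.8% of cases at day 0 and in 10.4% and 10.5% at day 4. The pyrimidine word TTTCT, which does not overlap GAGAA, showed the opposite order, with 12% and 11.1% of sites against 21.1% and 20.8% of flanks at day 0, and 9.96% and 9.84% against 19.4% and 19.3% at day 4. In the sites shown above, 13 of the 47 Sptb sites and 13 of the 37 Cpeb4 sites without a day 0 PPS held GAGAA, but 1 of 18 did in Zfpm1. The replicates of the 2 days lay close together in each case. Both words were picked after the sequences had been examined, and a match describes these letters only. Whether the base preference of the nuclease or of library construction has a part in it was not tested.

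Which genes carried the intronic gain was examined next. For this, the intronic PPSs of each protein-coding gene were counted per 10000 PPSs of the replicate set. Intronic dsRNase PPSs were found in 3493 genes at day 0 and 4844 at day 4, of which 2808 had them on both days, 2036 at day 4 only and 685 at day 0 only. The count per 10000 was higher at day 4 in 3683 genes and lower in 1846. The rises were unevenly spread. The 318 genes with the largest rises gave 50% of their sum, and the first 100 of them gave 29.6%. The falls of CDS sites were spread more widely, with 905 of 4945 genes needed for 50% of their sum and 11.9% of it in the top 100. As the day 4 lists were longer, a gene with an unchanged number of CDS sites also counts as a fall per 10000. The pooled lists held 24477 CDS sites at day 0 and 26040 at day 4. One predicted gene model, Gm20388, spans 4.43 Mb and the introns of many other genes of its strand, and gave 1.72% of the intronic rises by counting their sites again. Without it, a comparison added after the data had been seen, 330 genes gave 50%.

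**Figure D2:**
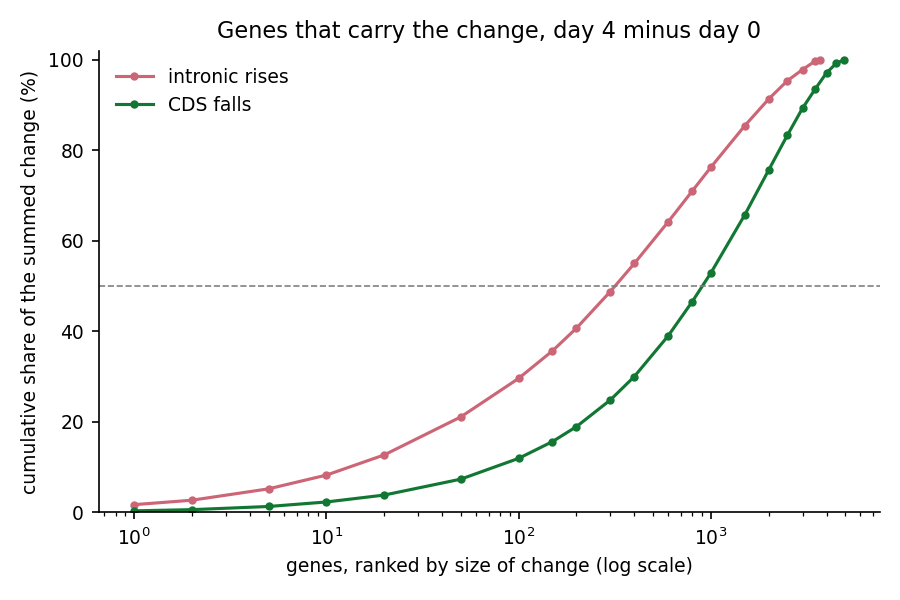
Cumulative share (percent) of the summed rises of intronic PPSs and of the summed falls of CDS PPSs, each per 10000 PPSs, against the number of genes ranked by size on a log axis. The dashed line marks 50%, which the intronic rises reach with 318 genes and the CDS falls with 905. As the day 4 lists are longer, a gene can fall per 10000 without losing CDS sites.

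The largest intronic rises were found in genes of the red cell skeleton and in several other large genes. Sptb, which encodes the beta chain of erythroid spectrin, had 1 and 3 intronic PPSs in the day 0 replicates and 130 and 92 in the day 4 replicates. Most day 4 sites of Sptb thus lay in introns, where day 0 had few. Per 10000 PPSs the rise was 22.6 (22.0 to 23.3 over the 4 pairs), the largest of the genes named. Sptb CDS sites numbered 9 and 14 at day 0 and 25 and 21 at day 4. For shares within a gene, only sites that touched an intron and no CDS of the gene were taken as intronic, and a site that touched both was counted with the CDS sites. By this count the intronic share of the CDS-or-intronic sites of Sptb went from 0% and 6.67% to 83.1% and 80.4%. Intronic covered length in Sptb was 11126 nt higher at day 4, and 2172.5 nt higher among sites without an ssRNase call.

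**Figure D3:**
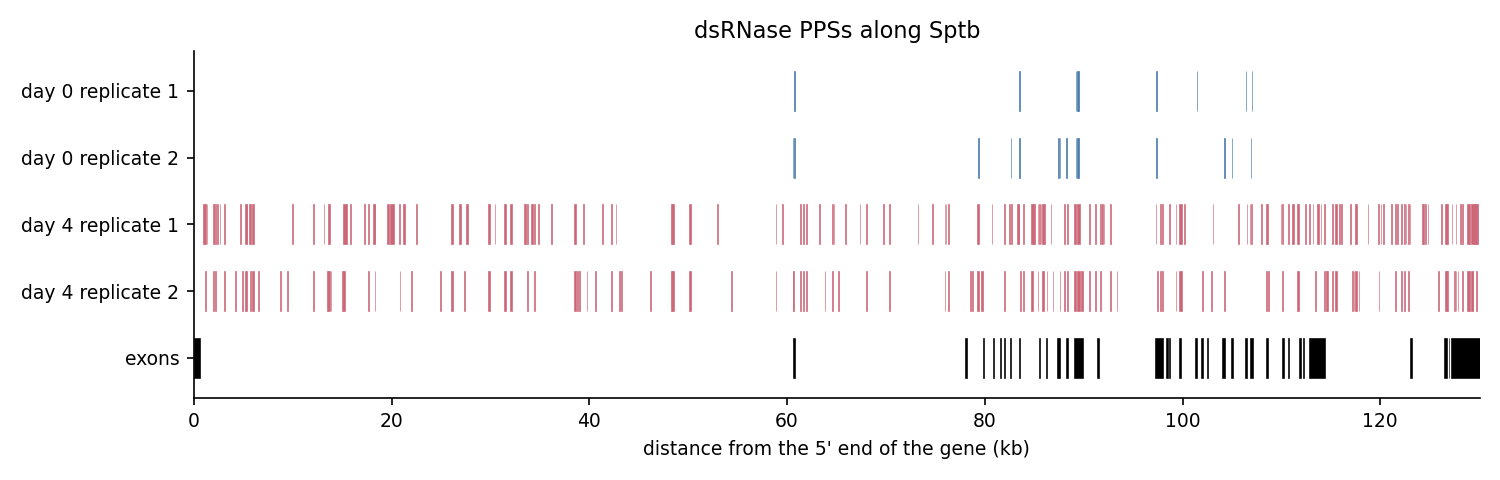
Positions of dsRNase PPSs along Sptb in each replicate set, in kb from the 5′ end of the gene, above its annotated exons (black). The gene held 9 and 15 PPSs in the day 0 replicates, nearly all at exons, and 163 and 118 in the day 4 replicates, many of them in the long introns.

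Asap1, which encodes a GTPase-activating protein for Arf, already had 48 and 64 intronic PPSs at day 0 and reached 197 and 170 at day 4. Cpeb4, which encodes a regulator of translation in late erythroid cells, went from 1 and 1 to 93 and 68. In these genes both day 4 counts exceeded both day 0 counts by more than the spread between replicates. Zfpm1, the gene of the GATA1 cofactor FOG-1, had 18 and 19 at day 0 and 118 and 89 at day 4. Atrnl1, which encodes an attractin-like membrane protein, had 1 and 5 and then 104 and 54. Epb41, the gene of protein 4.1 of the membrane skeleton, had 11 and 10 and then 93 and 70. Camta1, which encodes a calmodulin-binding transcription activator, had 2 and 6 and then 90 and 47. Replicate 1 of day 4, the larger set, gave the higher count in each of these 7 genes. As rises per 10000 they ran from 12.8 in Camta1 to 22.6 in Sptb, with all 4 pairs of replicates in the same direction.

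The same introns were read with ssRNase, in other libraries of the same cultures. A PPS with calls of both nucleases counts for both, so the 2 readings are not independent. In Sptb the ssRNase sets held 5 and 2 intronic PPSs at day 0 and 153 and 171 at day 4. In Cpeb4 they held 1 and 4, then 77 and 83. These ssRNase counts separated the days as the dsRNase counts did. In Asap1 the ssRNase counts were 192 and 125 at day 0 and 227 and 284 at day 4, closer to each other than the dsRNase counts.

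The largest falls of CDS sites per 10000 were found in long coding sequences, several of them of the kinetochore. Mdn1, which encodes an ATPase of ribosome assembly, had 20 and 38 CDS PPSs at day 0 and 12 and 4 at day 4, a change of -7.82 per 10000 (-10.7 to -4.99). Cenpf had 28 and 21 and then 10 and 11, Knl1 20 and 17 and then 4 and 4, and Cenpe 16 and 22 and then 8 and 2. These 3 genes encode proteins of the kinetochore, and their day 4 counts were below both day 0 counts although the day 4 lists were longer. Among sites without an ssRNase call the Mdn1 change was -0.314 per 10000 and no longer held in all 4 pairs, while Cenpf gave -5.66 and Knl1 -5.16. Brca2, the gene of a protein of homologous recombination, had 16 and 18 and then 2 and 3. Flna, which encodes the actin crosslinker filamin A, had 14 and 23 and then 7 and 6. The remaining genes of this set showed smaller differences in number. Ahnak2 had 19 and 34 CDS PPSs at day 0 and 23 and 14 at day 4, so that its counts overlapped and it fell only relative to list size. Smg1, the gene of a kinase of nonsense-mediated decay, had 28 and 25 and then 22 and 18, while its exonic coverage, at 11.7% and 10.5% at day 0 and 11.4% and 11.5% at day 4, was not called.

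**Figure D4:**
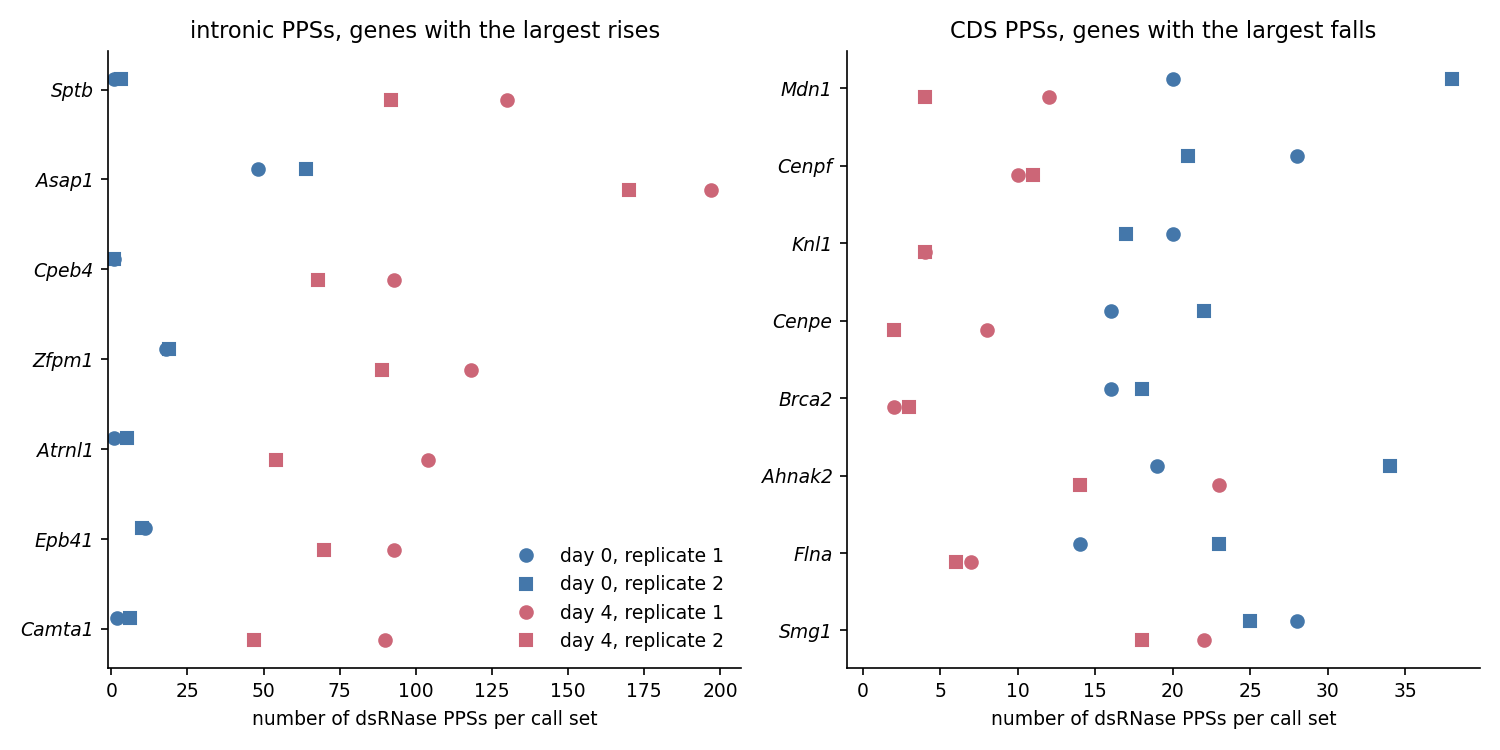
Number of dsRNase PPSs per replicate set in introns of 7 of the 8 genes with the largest intronic rises (left) and in the CDS of the 8 genes with the largest CDS falls (right), both ranked per 10000 PPSs. Day 4 points lie right of day 0 points for all 7 genes on the left, from Sptb (130 and 92 against 1 and 3) to Camta1, and left of them on the right for all but Ahnak2, whose counts overlap.

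The rise of the intronic share was seen within genes as well as between them. Over the 6001 genes with CDS or intronic sites on both days in the pooled lists, the share of intronic among CDS-or-intronic sites, with intronic sites that touched a CDS left to the CDS, went from 32.7% to 53.6%. Changed shares within genes made up 14.3 points of this, and a changed weight of genes 6.58 points. Over the 4 pairs of replicates the within-gene part ran from 10.9 to 16.8 points, with a mean of 13.7, and the between-gene part from 4.99 to 8.34 points. Of 708 genes with at least 10 such sites in the pooled list of each day, 333 had a higher intronic share in all 4 pairs (47% of those compared). In 42 (5.93%) the share was lower in all 4 pairs. Over all 708 genes the median change was 11.3 points.

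The largest within-gene rises among these were in Sptb, Ank1, Arhgef12 and Atrnl1. Ank1, the gene of erythroid ankyrin, which ties spectrin to the membrane, had an intronic share by this narrower count of 0% and 7.69% at day 0 and 84.4% and 78.4% at day 4. Its CDS sites numbered 5 and 12 and then 14 and 11, and its PPSs that touched an intron at all 1 and 5 and then 83 and 44. Intronic sites thus rose far more in number than CDS sites in Ank1. Arhgef12 went from 0% and 22.2% to 77.5% and 75%. It had only 4 and 7 CDS sites at day 0, so day 0 shares of single replicates can rest on few sites. In Atrnl1 the share was 20% and 30.8% at day 0 and 90.4% and 79.1% at day 4.

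Calls per gene were made for 2 measures. Exonic coverage is the percentage of exonic nucleotides of a gene that lie in a dsRNase PPS, and a gene was called when both day 4 replicates lay on the same side of both day 0 replicates and the means differed by at least 5 points. Of 8514 genes compared, 886 were called higher (10.4%) and 587 lower (6.89%), with a median change of 0.438 points. Intronic covered length was called in the same way with a difference of at least 100 nt. Of 5508 genes compared, 1454 were called higher (26.4%) and 246 lower (4.47%), with a median change of 37 nt. More genes gained than lost intronic coverage, while the exonic calls were more balanced. With equal numbers of top-scoring PPSs, 571 genes were called higher and 855 lower in exons, and 869 higher and 352 lower in introns. The order of the exonic calls turned under this alternative, which changes list size and the lowest score at once, and that of the intronic calls did not. Of 69 called or ranked values of single genes given here, 17 lost their call and 3 turned direction among sites without an ssRNase call. Among PPSs of a single call, which leaves out all merged sites, 34 of 68 lost it and 14 turned direction. The number called lower in introns was 400 without day 0 replicate 1 and 372 without day 4 replicate 1.

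Genes called higher in introns were rarely lower in exons. Of the 1427 that were also compared in exons, 352 were called higher there and 23 lower, and their median exonic change was 2.35 points. Of the 235 genes called lower in introns and compared in exons, 76 were called lower in exons and 6 higher, with a median of -3.18 points. Over all genes compared in exons, 10.4% were called higher and 6.89% lower. A PPS across an exon-intron boundary adds to both measures, and neither is scaled to list size, so the exonic and intronic calls are not independent. In the ssRNase sets, 690 of the 1454 genes called higher had a larger intronic covered length in all 4 pairs of replicates and 226 a smaller one. Of the 246 genes called lower, 231 had a smaller ssRNase length in all 4 pairs and 1 a larger one. Over all 5508 genes these numbers were 1144 larger and 1688 smaller. A PPS with calls of both nucleases counts in both lengths, so the 2 nucleases are not independent here. Among sites without an ssRNase call, 1126 genes were called higher and 42 lower in introns.

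Genes with more intronic sequence were called more often. The call is in nucleotides, and whether this is the reason was not tested. In the shortest of 5 equal classes of intronic length (0.503 to 10.2 kb), 9.71% of genes were called higher, and in the longest (above 76.2 kb) 45.1% were. The covered share of intronic sequence was higher at day 4 in every class. In the shortest class it was 0.733% and 0.861% at day 0 and 1.55% and 1.09% at day 4, and in the longest 0.0997% and 0.126% and then 0.358% and 0.237%.

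Among genes with at least 500 exonic nt and 3 PPSs, the 4 largest rises of exonic coverage were in Hbb-bs, Slc25a37, Hba-a1 and Ranbp6. Hbb-bs, an adult beta-globin gene, had no exonic dsRNase PPS at day 0 and coverage of 78.9% and 38.8% at day 4. Hba-a1, an adult alpha-globin gene, had 15.1% and 19.8% and then 76.8% and 48.3%. In both the days did not overlap, and replicate 1 of day 4 was the higher. The globin genes have near-identical copies, so reads may have been split between them, and among sites without an ssRNase call the Hba-a1 change was -10.8 points. Slc25a37, the gene of the mitochondrial iron importer mitoferrin, had 7.44% and 2.59% at day 0 and 62.9% and 58.7% at day 4, and 0 and 0 intronic PPSs followed by 20 and 16. Ranbp6, which encodes a protein of the importin family, had 15.8% and 28.1% and then 72.2% and 59.5%. Among sites without an ssRNase call the change was 54.7 points in Hbb-bs and 6.76 points in Slc25a37, but 1.04 points and no call in Ranbp6.

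Of the 4 largest exonic falls among genes of this size, 3 were in histone genes. Hist2h2ac coverage was 79.6% and 62.7% at day 0 and 13.1% and 0% at day 4. For Hist1h2bm it was 26.3% and 70.8% and then 8.02% and 0%, and for Hist1h3a 50.7% and 74.2% and then 23.0% and 29.6%. Each fell in all 4 pairs, with a wide spread at day 0. Histone genes also have close copies. Ndufb3, the gene of a subunit of respiratory complex I, went from 35.1% and 35.1% to 8.26% and 0%. With PPSs of a single call the change was 1.12 points in Hist1h3a and 4.13 points in Ndufb3.

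Gene lists were then compared with these backgrounds. Here too, a change of coverage cannot be told apart from a changed amount of the transcript. The lists of red cell function held larger shares of genes called higher in exons than the 10.4% over all genes. All 4 adult globin genes compared were called higher in exons (median change 40.2 points), as were 5 of 8 heme synthesis enzymes (7.69 points), 12 of 19 genes of the red cell membrane and skeleton (9.08 points), 10 of 19 of terminal erythroid maturation (5.34 points) and 4 of 14 of iron uptake and storage (0.860 points, and -1.07 points with equal numbers of top-scoring PPSs). In these lists 1 gene was called lower, Add3, which encodes an adducin of the membrane skeleton. In introns, where 26.4% of all genes were called higher, 2 of 2 globin genes, 4 of 8 heme enzymes, 11 of 15 membrane genes, 10 of 16 maturation genes and 4 of 12 iron genes were called higher, and 2 membrane genes, Add2 and Add3, lower. The membrane list gave 2.99% of all intronic rises, which summed to 2298 per 10000. Much of this came from its members Sptb, Epb41 and Ank1, with rises of 22.6, 13.7 and 12.1. The intronic counts of these lists were not adjusted for intronic length, with which calls increased over all genes.

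Single members show the size of these changes. Alas2, the gene of the first enzyme of heme synthesis in erythroid cells, had exonic coverage of 16.5% and 7.87% at day 0 and 35.9% and 28.6% at day 4, and its intronic PPSs went from 0 and 0 to 19 and 20. Both day 4 replicates lay above both day 0 replicates in each measure. Gypc, the gene of glycophorin C, had 0% and 9.35% and then 36.9% and 31.0%. Tfrc, the gene of the transferrin receptor, which takes up iron, had 19.7% and 17.7% and then 48.3% and 48.3%. Abcb10, which encodes a mitochondrial transporter, had 0 and 57 nt of intron covered at day 0 and 2238 and 1749 nt at day 4. All of these passed the call. Foxo3, the gene of a transcription factor of terminal maturation, had 52 and 189 nt and then 3722 and 3182 nt, and Bnip3l, the gene of a receptor for mitochondrial removal, had exonic coverage of 9.85% and 10.7% and then 28.8% and 22.6%. Hbb-bt, the other adult beta-globin gene, had 0 and 0 nt of intron covered and then 338 and 200 nt. Among sites without an ssRNase call the exonic change was 5.24 points in Alas2 and 4.48 in Bnip3l, and the intronic change in Hbb-bt 88.5 nt, so these calls were lost.

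Erythroid transcription factors were divided. The shares over all genes were 10.4% higher and 6.89% lower in exons, and 26.4% higher and 4.47% lower in introns. Of 14 compared, 4 were called higher and 3 lower in exons, and 8 higher and 2 lower in introns. Zfpm1 exonic coverage went from 3.31% and 4.03% to 19% and 19.2%. Tal1, the gene of a partner of GATA1, went from 10.2% and 12.4% to 53.2% and 37.6%. Those called lower in exons were Bcl11a, Gfi1b and Lmo2, and Gfi1b was called higher in introns. Of 12 progenitor regulators, 6 were called lower and 0 higher in exons (median -3.40 points), and in introns 5 of 12 were lower and 1, Kmt2a, higher. Spi1, the gene of PU.1, a factor of myeloid and early blood cells, had exonic coverage of 8.57% and 7.72% at day 0 and 0.223% and 0% at day 4, with a change of -1.69 points and no call among sites without an ssRNase call. Myc, the proliferation factor, went from 27.1% and 32.0% to 20.1% and 22.5%. Runx1, a regulator of blood progenitors, had 6056 and 9204 nt of intron covered at day 0 and 10246 and 7075 nt at day 4, so the days overlapped and it was not called.

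Among lists of proliferation, DNA replication genes and kinesins and centromere proteins were mostly lower where they passed the exonic call. The list of cyclins and cyclin-dependent kinases was not. The background was 10.4% higher and 6.89% lower in exons, and 26.4% higher and 4.47% lower in introns. DNA replication genes were called lower in exons in 9 of 37 cases and higher in 0 (median -2.40 points), and in introns 2 of 22 were higher and 2 lower. Mcm4, a subunit of the replicative helicase, went from 28.7% and 30.1% to 12.7% and 7.77%, and Rrm2, a subunit of ribonucleotide reductase, from 15.8% and 14.7% to 0% and 0%. Mcm10, a replication factor, had 462 and 462 nt of intron covered and then 328 and 0 nt, from at most 1 PPS a set. With PPSs of a single call the Mcm4 change was 4.97 points, and without ssRNase calls the Mcm10 change was 0 nt. Of 39 kinesins and centromere proteins 6 were lower and 2 higher in exons, and of 28 in introns 8 were lower and 5 higher. Kif4, a kinesin of chromosomes, went from 10.2% and 11.4% to 3.32% and 1.54% in exons (0.526 points among sites without an ssRNase call), and Cenpo, a kinetochore gene, from 505 and 1327 nt of intron to 44 and 0 nt. Cenpe exonic coverage went from 15.2% and 20.8% to 6.04% and 2.49%, with a change of -2.58 points and no call without ssRNase calls. Of 26 genes of cyclins, cyclin-dependent kinases, their inhibitors and the Rb and E2F families, 3 were called higher and 1 lower in exons. Those higher were Ccnd2, E2f4 and Rb1, of which only Ccnd2 encodes a cyclin, and the 1 lower was Ccnb1. Ccnb1, the gene of the mitotic cyclin B1, went from 15.0% and 18.9% to 2.73% and 1.23%, and Ccnd2, the gene of the G1 cyclin D2, from 4.67% and 5.57% to 23.3% and 15.3%. In introns, 2 of 14 genes of this list were called higher and 1 lower. The intronic Ccnd2 change was 765 nt, and 269 nt with no call without ssRNase calls.

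Histone genes were called lower in exons in 26 of 69 cases and higher in 10 (median -7.22 points), beside 6.89% lower and 10.4% higher over all genes. All of those called lower were genes of the histone clusters, such as Hist1h2ag (60.6% and 60.6% to 8.66% and 0%), although its change was 4.33 points with PPSs of a single call. Most of the 10 called higher were also cluster genes: Hist1h1c, Hist1h3e, Hist1h3g, Hist1h4a, Hist1h4c, Hist1h4i and Hist1h4m. The others were H3f3a, H3f3b and H1f0, which encode histone variants made outside S phase. Cluster genes were thus called in both directions. H2afy, the gene of the variant macroH2A, had 399 and 456 nt of intron covered at day 0 and 1810 and 1652 nt at day 4.

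Genes of protein synthesis and of the proteasome, which degrades proteins, differed by class. All genes compared gave 10.4% higher and 6.89% lower in exons, and 26.4% higher and 4.47% lower in introns. In introns, the lists of ribosomal proteins, translation factors and proteasome subunits each had a smaller share called higher than all genes. Cytosolic ribosomal proteins were called higher in exons in 22 of 71 cases and lower in 6, and in introns 3 of 44 were higher and 5 lower. Their median exonic change was 2.69 points, and 0.0299 points with equal numbers of top-scoring PPSs. Rpl10a went from 28.4% and 34.3% to 10.5% and 8.19%, with a change of -0.350 points and no call among sites without an ssRNase call. Rpl38 had 232 and 232 nt of intron covered and then 59 and 49 nt, but a change of 54 nt among sites without an ssRNase call. Ribosomal protein genes have many processed copies, which makes single values uncertain. Translation factors were evenly divided in exons, with 7 of 55 higher and 7 lower, and in introns 7 of 49 were higher and 5 lower. Eif5a, the gene of an elongation factor, rose from 3.28% and 4.46% to 26.3% and 21%, Eif3b, a subunit of initiation factor 3, from 13.4% and 19.6% to 30.2% and 23.6%, and Etf1, the gene of the release factor, fell from 660 and 1052 nt of intron to 217 and 72 nt. Proteasome subunits were lower in 7 of 34 cases and higher in 2 in exons, and higher in 3 of 24 in introns. Psma6 went from 33.2% and 44.2% to 25.2% and 18.3%, Psmc5 from 54.0% and 38.1% to 37.7% and 23.7%, and Psmb7 from 0 and 54 nt of intron to 594 and 179 nt. Without ssRNase calls the exonic change was 4.29 points in Eif3b and -5.67 points in Psma6, and neither was called.

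Genes of RNA-binding proteins and of histone-modifying enzymes were compared with the same shares over all genes. These were 10.4% higher and 6.89% lower in exons, and 26.4% higher and 4.47% lower in introns. The shares called higher in introns among SR proteins and hnRNPs and among RNA helicases lay near that over all genes. Of SR proteins and hnRNPs, which act in splicing, 5 of 33 were higher and 4 lower in exons, and 8 of 31 higher and 1 lower in introns. Hnrnph2 went from 18.8% and 18.9% to 39.6% and 36.1% in exons, Ptbp1 from 18.3% and 19.5% to 12.3% and 6.03%, and Tra2a from 218 and 339 nt of intron to 1848 and 740 nt. RNA helicases were higher in 4 of 44 and lower in 5 in exons, and higher in 8 of 29 and lower in 0 in introns. Ddx17 went from 24.3% and 19.2% to 43.3% and 40.5% in exons and from 97 and 299 nt to 1170 and 976 nt in introns, and Ddx56 from 11.4% and 10.9% to 0% and 0% in exons. Histone-modifying enzymes were higher in 11 of 70 and lower in 2 in exons, and higher in 22 of 60 and lower in 2 in introns, with a median intronic change of 71.5 nt. These counts were not adjusted for intronic length, with which calls increased over all genes. Kmt2c, a methyltransferase of histone H3, had 463 and 619 nt of intron covered at day 0 and 2372 and 2179 nt at day 4. Its relative Kmt2d went from 12.3% and 16.8% to 26.8% and 21.8% in exons, and Kmt5c, a methyltransferase of histone H4, from 0% and 0% to 18.9% and 9.52%. Without ssRNase calls the calls of Tra2a (146 nt), Ddx17 (2.01 points and 84 nt), Kmt2d (0.933 points) and Kmt5c (2.54 points) were lost.

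**Figure D5:**
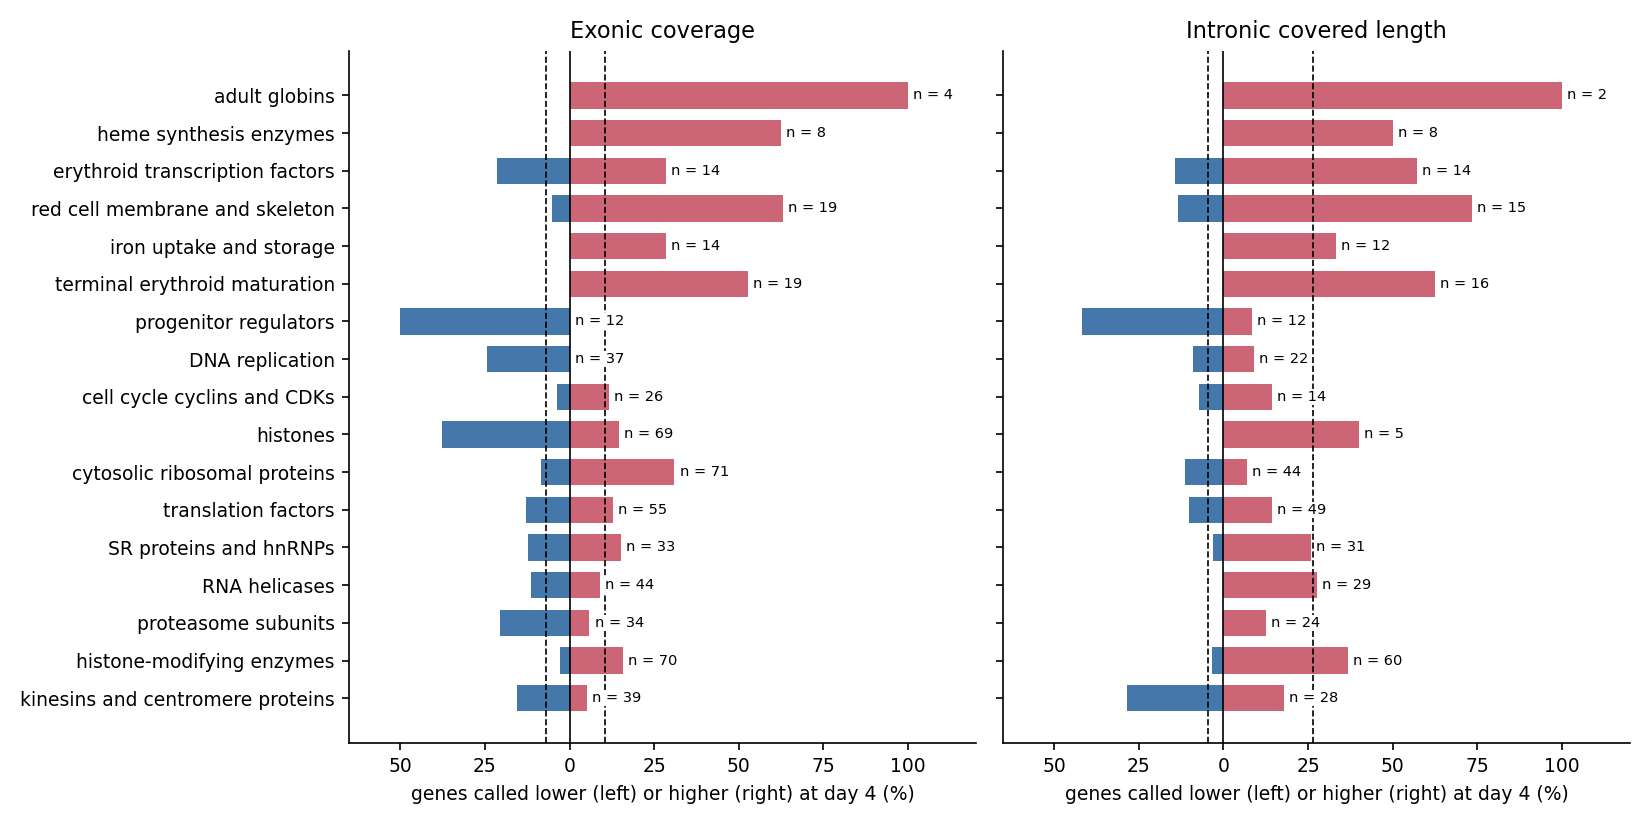
Percentage of the compared genes of each list that were called higher (right of 0) or lower (left of 0) at day 4, for exonic coverage and for intronic covered length, with the number of genes compared. Dashed lines mark the percentage over all genes (10.4% and 6.89% in exons, 26.4% and 4.47% in introns). The lists of red cell function extend to the right and the progenitor regulators to the left.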

How the data were processed

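PIP-seq libraries of MEL cells were compared at day 0 and day 4. The authors trimmed the reads, aligned them to mm10 with up to 10 hits kept, collapsed duplicates and called PPSs with a modified CSAR package, merging the calls of a day into 1 list. The submitters' processing notes name cutadapt 1.2.1 and TopHat2 2.0.10. The deposited score of a PPS is the authors' enrichment value, 5.4 at the lowest, and PPSs of 2 calls start at 10.8, so a merged PPS appears to carry the sum of its calls. It was used only to rank and filter. Library scaling before calling is not given in the sources used here. Replicate sets were the PPSs whose name field lists a dsRNase call of that replicate.

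Classes and genes came from GENCODE M21 on GRCm38, the build that mm10 names. All PPS ends lay within its chromosomes. The exonic comparison took protein-coding genes that had 200 exonic nt or more and 1 dsRNase PPS there. The intronic one, outside all exons of the strand, took those that had 500 nt or more and 1 PPS. Genes were named by rule: the 8 largest intronic rises and 8 largest CDS falls per 10000, the 4 largest exonic rises and falls among genes with at least 500 exonic nt and 3 PPSs, the 4 largest within-gene rises and, in each of 17 lists, the 2 largest exonic changes and the largest intronic one. Of the genes this rule gives, 4 are not reported here. Predicted, RIKEN and exon-sharing genes were left out. Other genes are named only from the counts. The sites, lists and rule were chosen with earlier results of these data known. The functions were tested on simulated data. Alternatives were replicate and nuclease support, length, list size, merging, overlap, score, call size, replicate pairing and each replicate left out. Python 3.11.15, numpy 2.4.6, pandas 2.3.3 and matplotlib 3.10.9 were used.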

Additional observations from a re-analysis of the deposited data

Results flagged for a closer look

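The CDS share and both intron shares of the 2 nucleases moved in opposite directions from day 0 to day 4, in every pair of replicates, while the 5′ UTR share was lower and the share outside genes higher for both. The dsRNase change minus the ssRNase change was -19.3 percentage points for the CDS share, 17.4 points for the intron share and 19.4 points for the share in introns alone. For ssRNase, the share in introns alone was 47.1% and 47.8% at day 0 and 41.1% and 43.8% at day 4. At day 4 the intron-alone shares of the 2 nucleases, 37.4% and 32.8% for dsRNase, were closer than at day 0, when dsRNase gave 19.6% and 21.8%. The difference was not tested.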

How the results depend on the processing

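The CDS, intron, 3′ UTR and 5′ UTR changes kept their direction under every alternative run. With calls of both replicates the CDS change was -17.8 points, 774 genes were called higher and 138 lower in introns, and 595 genes gave 50% of the CDS falls, while the median distance to an exon changed by -112.5 nt instead of 52.8. Without ssRNase calls, changes were -18.9 points for CDS, 18.6 for introns, 18.6 for introns alone, -1.24 for 5′ UTRs and 0.5 nt for the median length of intronic sites (otherwise -6). Counts were then 453 higher and 338 lower in exons and 42 lower in introns, the mean within-gene part over the pairings was 18.2 points (otherwise 13.7), and Hba-a1 (-10.8 points), Kif4 (0.526 points) and Rpl38 (54 nt) turned direction, while 17 more of 69 gene values lost their call. With equal numbers of top-scoring PPSs, the change in introns alone was 10.7 points, the within-gene part 9.06 points and the length change 6 nt, with 571 genes higher in exons and 869 in introns. With single-call PPSs, which drops all merged sites, the changes were -18.3 (CDS), 19.9 (introns), 20.7 (introns alone), -8.94 (3′ UTRs) and 19.6 points (within genes). Counts were 49 and 65 in exons and 818 and 26 in introns, and 484 genes gave 50% of the rises. Of 68 gene values, 34 lost their call with single-call PPSs and 14 turned direction, those of Cenpe (1.29 points), Ahnak2 (1.25 per 10000), Hba-a1 (-1.85 points), Ranbp6 (-0.798), Hist1h3a (1.12), Ndufb3 (4.13), Bnip3l (-1.71), Mcm4 (4.97), Hist1h2ag (4.33), Rpl10a (4.71), Hnrnph2 (-1.44), Kmt2d (-1.11), Kif4 (0.526) and Rpl38 (54 nt). Requiring 50% of the length in a class gave -1.20 points for 5′ UTRs. Counting each PPS once gave -1.33 (3′ UTRs) and -0.630 (5′ UTRs). A score of at least 10 gave 7.95 (introns), 10.2 (introns alone), -1.64 (3′ UTRs) and 9.86 points (within genes). Calls at 10 points and 200 nt numbered 321 and 198 in exons and 932 and 130 in introns. Leaving out 1 replicate gave 243 to 400 genes lower in introns. The correlation of replicate deviations between the days was -0.0569 over 8514 genes in exons and -0.452 over 5508 in introns. Coverage was not scaled to list size, and replicate 1 was the smaller set at day 0 and the larger at day 4. The correlation therefore cannot show whether replicate numbers pair the samples. With a replicate block, 913 and 610 genes were called in exons and 1509 and 262 in introns, and with the crossed pairing, added after seeing the data, 909, 610, 1546 and 270. The lists hold no read counts, so the depth behind a site is unknown.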
